A study of Mus musculus with 20 samples.

Results

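The killer cell lectin-like receptors, whose gene symbols start with Klr, were followed together with Ncr1 in bulk RNA of SCCVII tumors. Every row of the gene count table whose Ensembl identifier carried such a symbol was taken, 31 by their GENCODE name and 1, Klrh1, by the RefSeq symbol of a gene that GENCODE names Gm156. This gave 32 of 54309 genes: 14 Klra genes, 6 Klrb1 genes, 3 Klrc genes, Klrd1, Klre1, Klrg1, Klrg2, Klrh1, Klri1, Klri2, Klrk1 and Ncr1. The rule used gene symbols and no measured value, although earlier results of these data were known when the family was chosen. Of the 32 genes, 4 were pseudogenes, and 24 passed the filter on low counts and were tested. The other 8 (Klra4, Klra6, Klra8, Klra10, Klra11-ps, Klra14-ps, Klrb1 and Klrb1-ps1) had at most 10 reads in any library, and Klra11-ps and Klra14-ps had 0 in all 20 libraries.

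Natural killer (NK) cells read their targets through these receptors. Klrk1 encodes NKG2D, an activating receptor for stress-induced ligands, which is present on NK cells and on activated CD8 T cells. Klrd1 encodes CD94, which pairs with NKG2A (Klrc1) to inhibit and with NKG2C or NKG2E (Klrc2, Klrc3) to activate, and which activated CD8 T cells also take up; Klrg1 is an inhibitory receptor of mature NK cells and of effector T cells. Ncr1 encodes NKp46, the activating receptor that marks NK cells and some innate lymphoid cells, and Klrb1c encodes NKR-P1C. The Klra genes encode the Ly49 receptors for class I molecules, while Klra2 and Klra17 are known mainly from myeloid and dendritic cells. Klrb1b was listed with Klra2 and Klra17 here and not among the genes listed for NK cells. Which cells of the tumors held its RNA was not tested.

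The tumors were SCCVII squamous cell carcinomas implanted under the skin of C3H/HeOuJ mice, which have an intact immune system. Each of 10 groups had 2 libraries, A and B. Beside the control, which received none of the agents, 3 groups received a single agent: APG-157 (a botanical drug containing curcumin, mixed into the chow), the checkpoint antibody anti-PD-1 or the checkpoint antibody anti-CTLA-4. APG-157 was also paired with either antibody, the antibodies were given together (dual blockade), and 1 group received all of them (triple combination). A further pair of groups received an antibody that depletes CD8 cells, as the only treatment (anti-CD8) or on top of APG-157 + anti-CTLA-4 (depleted combination). The paper gives the depletion its own workflow, with its own control and APG-157 + anti-CTLA-4 mice. The labels hold a single group of each and do not name the experiment. An effect of depletion may therefore not be separable from a difference between experiments. Matched groups below are those given the same treatment without anti-CD8. The labels do not say whether libraries A and B came from separate tumors, so p-values measure the spread between libraries, which may be technical. In bulk tissue, fewer cells of a type and less RNA per cell cannot be told apart. The reference gene set is that of C57BL/6, and Klra genes are known to differ between mouse strains, so a Klra value here is the number of reads assigned to that reference gene.

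Levels are given as CPM, counts scaled to a common library size and not for gene length, so that levels compare libraries and not genes. Libraries held 43920525 to 72081922 counts. The leukocyte marker Ptprc lay between 78.9 and 272 CPM. Of the squamous keratins, Krt5 and Krt6a were at 0 in most libraries, and the highest levels of Krt5 and Krt14, in replicate A of the depleted combination, were 6.97 and 6.5 CPM. The labeled carcinoma was thus hardly visible in Krt5, Krt6a and Krt14, the only keratins listed. Trp63, the other squamous marker listed, had 0 to 83 reads per library, with a median of 34. Replicate B of the depleted combination stood apart, with 355 CPM of the adipocyte gene Adipoq and 224 CPM of Cdh1, against at most 9.03 CPM of Cdh1 in the other 19 libraries. The main anti-CD8 fold changes are also given without it. The pair of APG-157 + anti-CTLA-4 libraries were closer to each other than any other pair, with a chi-square per degree of freedom of 11.0 against 53.4 to 683, yet still differed by more than sampling noise, and both were kept. For this group the paper mentions a single small tumor for flow cytometry and staining, and a single small tumor for western blots. Whether both libraries came from the same tumor is not stated, and the main tests counted them separately. The ratios to Ncr1 were not repeated with this pair averaged.

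The promoters of 5 of these genes are shown: Klrk1, Klrc1 and Klrc2, which are shared by NK and CD8 T cells, and Ncr1 and Klrb1c, which are NK markers. Klrd1 is not shown. Each is the 250 bases before the start of the RefSeq transcript listed first (assembly GRCm38.p6), written 5′ to 3′ on the gene's strand, with motif matches in capitals. The coordinates are chr6:129623865-129624114, chr6:129678974-129679223, chr6:129660597-129660846 and chr6:128788642-128788891 on the minus strand, and chr7:4337465-4337714 on the plus strand.
Klrk1: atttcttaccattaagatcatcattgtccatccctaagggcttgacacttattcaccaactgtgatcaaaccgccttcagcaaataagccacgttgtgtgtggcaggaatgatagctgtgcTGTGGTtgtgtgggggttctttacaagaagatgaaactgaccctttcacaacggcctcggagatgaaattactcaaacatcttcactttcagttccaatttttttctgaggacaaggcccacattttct
Klrc1: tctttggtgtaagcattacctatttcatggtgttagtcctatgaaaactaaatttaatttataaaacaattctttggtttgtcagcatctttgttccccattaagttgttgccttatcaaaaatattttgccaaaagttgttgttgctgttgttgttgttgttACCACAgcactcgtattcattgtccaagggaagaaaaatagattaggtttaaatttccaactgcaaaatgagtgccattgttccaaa
Klrc2: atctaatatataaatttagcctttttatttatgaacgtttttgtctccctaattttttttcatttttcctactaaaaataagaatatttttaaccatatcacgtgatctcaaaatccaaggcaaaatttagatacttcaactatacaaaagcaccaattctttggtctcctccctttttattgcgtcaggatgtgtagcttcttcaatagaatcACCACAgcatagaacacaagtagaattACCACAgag
Klrb1c: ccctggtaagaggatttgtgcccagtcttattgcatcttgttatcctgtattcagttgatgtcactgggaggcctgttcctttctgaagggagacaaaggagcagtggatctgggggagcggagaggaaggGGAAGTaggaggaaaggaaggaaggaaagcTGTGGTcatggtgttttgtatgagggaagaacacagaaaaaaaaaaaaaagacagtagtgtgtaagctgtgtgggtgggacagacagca
Ncr1: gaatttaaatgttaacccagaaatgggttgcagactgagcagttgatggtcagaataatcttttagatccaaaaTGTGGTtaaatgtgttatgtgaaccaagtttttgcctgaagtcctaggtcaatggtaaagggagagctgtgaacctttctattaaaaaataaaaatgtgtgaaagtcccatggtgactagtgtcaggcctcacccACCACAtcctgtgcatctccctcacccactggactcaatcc
The RUNX core TGTGGT, on either strand, occurred in all 5 of these windows. It started 129 bases before the start of Klrk1, 87 before Klrc1, 36 and 9 before Klrc2, 89 before Klrb1c, and 176 and 41 before Ncr1. Over 25 member genes with a promoter in the table, 9 held it (Klra1, Klrb1a, Klrb1c, Klrc1, Klrc2, Klrc3, Klre1, Klrk1 and Ncr1), and it was present in 14.2% of all 27025 promoters of that length. The ETS core GGAAGT was in 3 of the 25 and in 20% of all promoters, with 1 match shown in capitals in Klrb1c. The T-box core GGTGTGA was in 0 of the 25 and in 3.31% of all promoters. The capitals of the RUNX and ETS cores did not overlap.

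Across the 20 libraries the range of levels differed from gene to gene. Ncr1 (ENSMUSG00000062524.5) lay between 1.44 and 8.88 CPM, a 6.18-fold range, and Klrg2 had the smallest range among the genes tested that were detected in every library, 2.86-fold. Klrk1 (ENSMUSG00000030149.16) ran from 1.94 to 63.2 CPM, a 32.6-fold range. Klrc1 (ENSMUSG00000030167.16) spanned 25.1-fold, Klrd1 (ENSMUSG00000030165.17) 19.9-fold, Klrc2 37.9-fold and Klrg1 43.9-fold. On the log2(CPM + 0.1) scale, the SD over the 20 libraries was 0.56 for Ncr1, 0.81 for Klrb1c, 1.27 for Klrd1, 1.43 for Klrk1, 1.45 for Klrc1 and 2.60 for the CD8 coreceptor gene Cd8a.

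**Figure D1:**
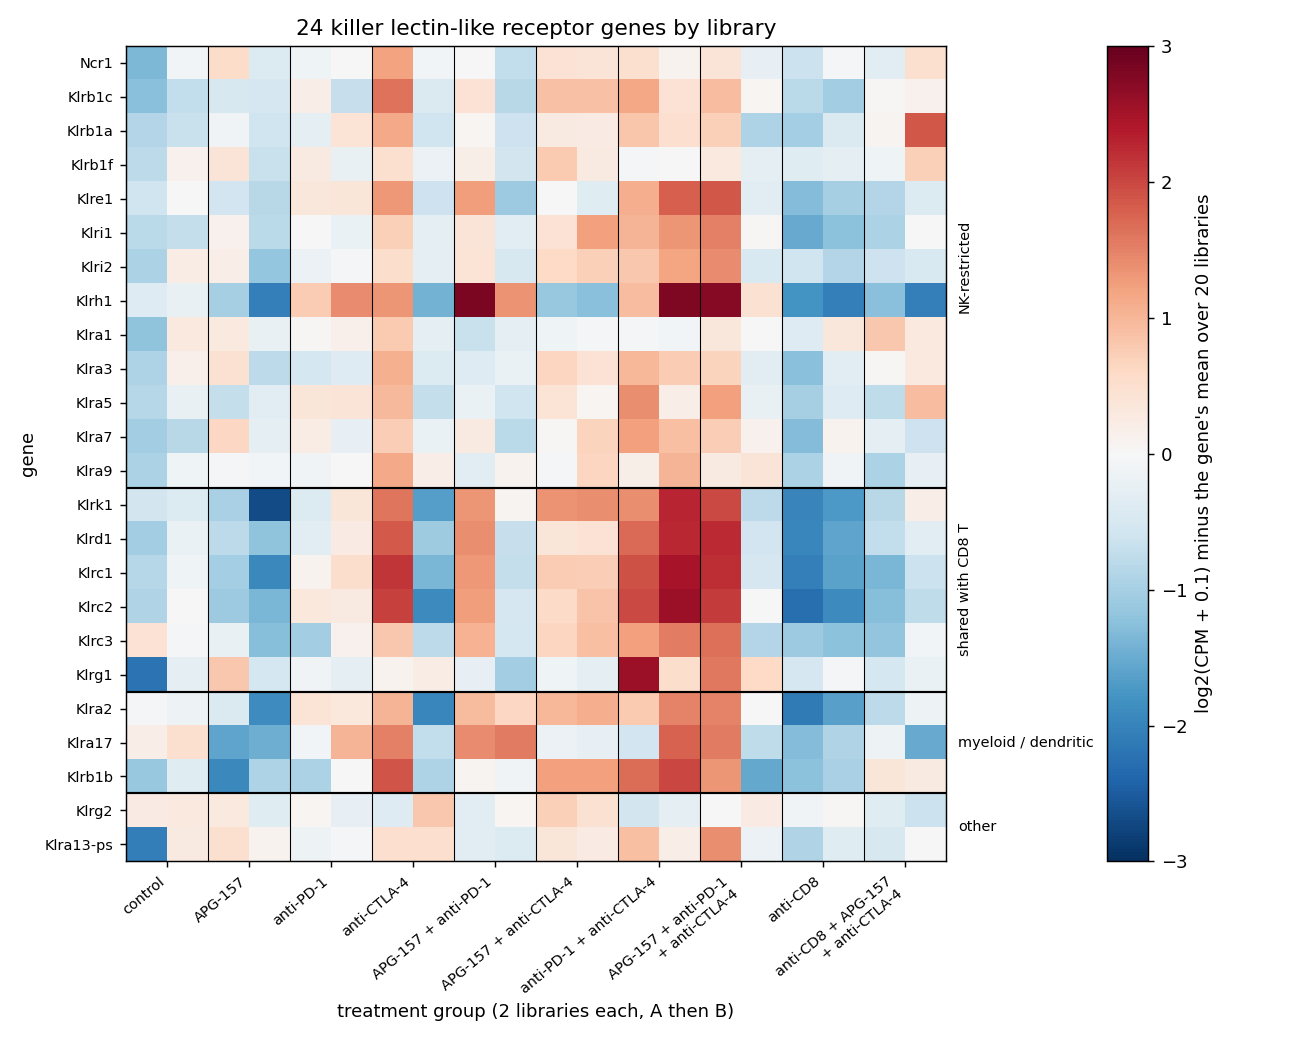
Heat map of the 24 tested genes (rows, by cell type list) in the 20 libraries (columns, A then B in each group); color is log2(CPM + 0.1) minus the gene's mean over the 20 libraries, and the color scale ends at 3 in either direction. Klrk1, Klrd1, Klrc1 and Klrc2 are high in the same libraries, among them anti-CTLA-4 replicate A and both dual blockade libraries, and low in both anti-CD8 libraries.

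Much of this range lay between libraries of the same treatment. Anti-CTLA-4 replicate A had 39.3 CPM of Klrk1 and replicate B had 4.07. In the same libraries, Klrc1 was at 24 and 2.01 CPM, Ncr1 at 8.88 and 3.59 CPM, and Cd8a at 32.2 and 0.800 CPM. In the triple combination, replicates A and B held 51.4 and 7.43 CPM of Klrk1, 5.04 and 3.22 CPM of Ncr1, and 43.9 and 3.99 CPM of Cd8a. Thus in anti-CTLA-4 and the triple combination the library rich in Klrk1 and Klrc1 was also rich in Cd8a, while Ncr1 differed by less. This did not hold in every group. Over the 10 groups, the median absolute log2 difference between both libraries was 0.69 for Ncr1, 0.95 for Klrk1, 0.71 for Klrc1 and 0.56 for Klrd1. In control, Ncr1 was at 1.44 and 3.60 CPM, while Klrk1 was at 8.85 and 9.63 CPM. The APG-157 + anti-CTLA-4 libraries were nearly alike, with 33.0 and 34.0 CPM of Klrk1 and 5.18 and 4.99 CPM of Ncr1.

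**Figure D2:**
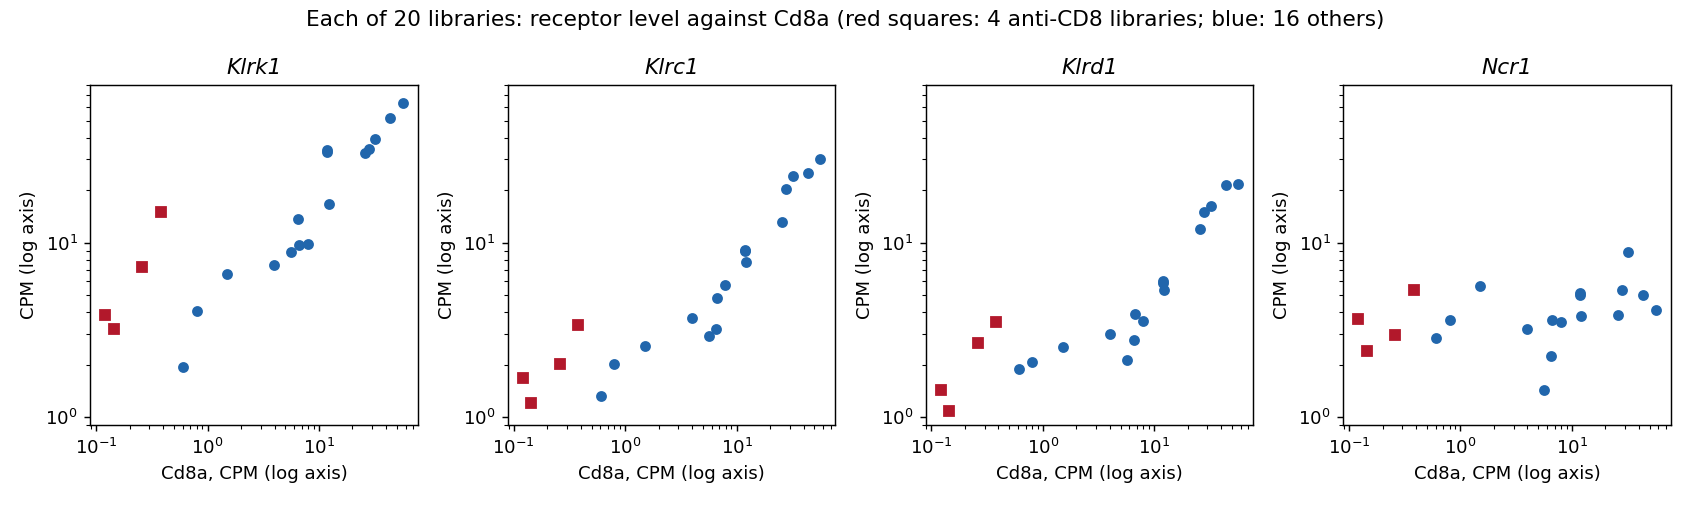
Levels of Klrk1, Klrc1, Klrd1 and Ncr1 (CPM, log axis) against Cd8a (CPM, log axis) in each of 20 libraries, with the 4 libraries of the anti-CD8 groups as red squares and the other 16 as blue circles. The anti-CD8 libraries lie at 0.121 to 0.381 CPM of Cd8a, below all others, and keep 2.39 to 5.35 CPM of Ncr1.

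Depletion with anti-CD8 asks which of these transcripts remain when CD8 cells are removed. Cd8a was at 0.144 and 0.121 CPM after anti-CD8 and at 0.260 and 0.381 CPM in the depleted combination. Without depletion, Cd8a was at 5.66 and 6.67 CPM in control and 11.9 and 11.9 CPM in APG-157 + anti-CTLA-4, so the groups did not overlap. The lowest Cd8a in any library without anti-CD8 was 0.608 CPM, in APG-157 replicate B.

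Ncr1, the NK marker, stayed detected in all 4 libraries. It was at 2.39 and 3.64 CPM after anti-CD8 against 1.44 and 3.60 CPM in control, and at 2.97 and 5.35 CPM in the depleted combination against 5.18 and 4.99 CPM in APG-157 + anti-CTLA-4. These ranges overlapped in both settings. Averaged over both settings (the anti-CD8 main effect), the log2 fold change of Ncr1 was −0.02 ± 0.38 (SE), and its sign rested on single libraries, at −0.27 when control replicate A was left out and 0.39 when control replicate B was. Klrb1c, the other NK marker, was at 0.682 and 0.564 CPM after anti-CD8 against 0.467 and 0.719 CPM in control, and at 1.29 and 1.40 CPM against 2.41 and 2.41 CPM in the other setting. It overlapped in the first setting and not in the second, and its anti-CD8 main effect was −0.39 ± 0.46 on the log2 scale.

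Of the genes shared by NK and CD8 T cells, Klrk1, Klrc1 and Klrd1 had lower levels in both settings. Klrk1 stood at 3.19 and 3.86 CPM after anti-CD8 and 8.85 and 9.63 CPM in control, then at 7.25 and 14.9 CPM in the depleted combination and 33.0 and 34.0 CPM without the depletion. The depleted and undepleted libraries did not overlap in either setting. That is 2 against 2 libraries each time, for which no share of all genes was counted. Over both settings together Klrk1 overlapped, with 14.9 CPM in the depleted combination and 8.85 CPM in control. Klrc1 was at 1.2 and 1.67 CPM after anti-CD8 against 2.91 and 4.82 CPM, and at 2.01 and 3.36 CPM against 9.09 and 8.97 CPM in the other setting. Klrd1 was at 1.09 and 1.44 CPM against 2.12 and 3.91 CPM, and at 2.65 and 3.51 CPM against 5.84 and 6.07 CPM. Their anti-CD8 main effects on the log2 scale were −1.50 ± 0.71 for Klrk1, −1.59 ± 0.72 for Klrc1, −1.10 ± 0.66 for Klrd1, −1.89 ± 0.72 for Klrc2 and −2.20 ± 0.89 for Klrc3 (SE). For Klrg1 the main effect was 0.29 ± 0.55, moving to −0.09 with control replicate A left out and to 1.15 with replicate B left out.

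By edgeR's quasi-likelihood test with Benjamini-Hochberg adjustment, 0 of the 24 tested members passed an adjusted p of 0.05 for the anti-CD8 main effect, where 0.0153% of all 19567 genes passed. At an unadjusted p under 0.05, 7 of the 24 were lower and 0 higher (Klra2, Klrg2, Klrc2, Klrc3, Klri1, Klrh1 and Klrc1), against 7.10% of all genes lower and 10.5% higher. The count of lower members ran from 2 to 5 as single libraries were left out, with 2 without anti-CD8 replicate A, 3 without APG-157 + anti-CTLA-4 replicate B, 4 without its replicate A, and 3 lower and 2 higher without control replicate B. DESeq2 called 1 member, Klra2, and 6.07% of all genes. Of 6 shared genes 5 had a fold change below 0 (median −1.54), as had 11 of 13 tested genes listed for NK cells (median −0.39), and the median over all genes was 0.01. Whether the lists differ was not tested. Leaving out the depleted combination's replicate B, the values were −1.80 for Klrk1, −1.79 for Klrc1, −2.04 for Klrc2, −2.93 for Klrc3, −1.21 for Klrd1, −1.80 for Klra2, −0.65 for Klrg2, −1.55 for Klri1, −0.42 for Klrb1c, 0.19 for Klrg1 and −0.26 for Ncr1. Other markers had lower values as well. Of 7 T cell markers, 6 had an anti-CD8 main effect below 0 (median −1.20), and their summed level was 24.7 to 48.9 CPM in the anti-CD8 libraries against 49.8 to 72.3 CPM in the matched ones, with none at 0. Ptprc was at 86.2 to 134 CPM against 115 to 250 CPM, with a log2 fold change of −0.67 ± 0.26. The part of these markers in the members' values was not tested.

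Each setting was also tested alone. Against control, anti-CD8 had 0 of 24 members and 0% of all genes called by edgeR, and 0 members and 0.0927% of all genes by DESeq2. An unadjusted p below 0.05 with a lower level was found for Klrh1, Klra2 and 0.869% of all genes. For both members this rested on single libraries. Against APG-157 + anti-CTLA-4, the depleted combination had 0 of 24 members called by edgeR, against 19.0% of all genes. At an unadjusted p under 0.05, Klrg2 and Klri1 were lower, against 17.0% of all genes. DESeq2 called Klrg2 alone, and 27.4% of all genes. The high share of all genes rested on single libraries, since edgeR called 8 genes without replicate B of the depleted combination and 2 without either of the APG-157 + anti-CTLA-4 libraries, yet 8939 of 21969 without replicate A of the depleted combination, Klrg2 among them. The interaction, which asks whether anti-CD8 acted differently in the 2 settings, had 0 of 24 members called by edgeR, 0 below an unadjusted p of 0.05 and 0 by DESeq2. Over all genes, edgeR called 0.0102%, 27.7% were below an unadjusted p of 0.05, and DESeq2 called 13.5%.

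Within a library, the shared genes were set against Ncr1, a comparison chosen after the values had been seen. In the 4 libraries of the anti-CD8 groups, the log2 ratio of Klrc1 to Ncr1 (0.1 CPM added to each) was −0.80 ± 0.25 (SD, n = 4), and in control and APG-157 + anti-CTLA-4 it was 0.75 ± 0.24 (SD, n = 4). The difference was −1.56, with p = 0.0286 in an exact two-sided permutation test, the smallest that 4 against 4 libraries allow, and 0.0476 after adjustment over 5 ratios. The test permuted libraries over both settings together and not within each, so it ignored the setting. The log2 ratio of Klrd1 to Ncr1 differed by −1.05 and that of Klrc2 by −1.69, each with the same exact p. For Klrk1 the difference was −1.53 (exact p = 0.0571, adjusted 0.0714), and control replicate B at 1.40 overlapped the depleted combination, whose replicates were at 1.26 and 1.46. For Klrg1 the difference was 0.39 (exact p = 0.200). Low ratios were not particular to the anti-CD8 libraries. The log2 ratio of Klrc1 to Ncr1 was −1.11 and −1.05 in APG-157 and −0.81 in anti-CTLA-4 replicate B. It was 0.20 to 2.84 in the other libraries without anti-CD8. With libraries permuted only within the same letter, the adjusted p was 0.0926 for Klrc1, Klrd1 and Klrc2, and 0.139 for Klrk1. The adjusted p of Klrd1 was over 0.05 without control replicate A (0.0952), without control replicate B (0.0714) and without either APG-157 + anti-CTLA-4 library (0.0952), as were those of Klrc1 and Klrc2 without control replicate A and without either APG-157 + anti-CTLA-4 library (0.0714), while that of Klrk1 was 0.0476 without control replicate B.

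**Figure D3:**
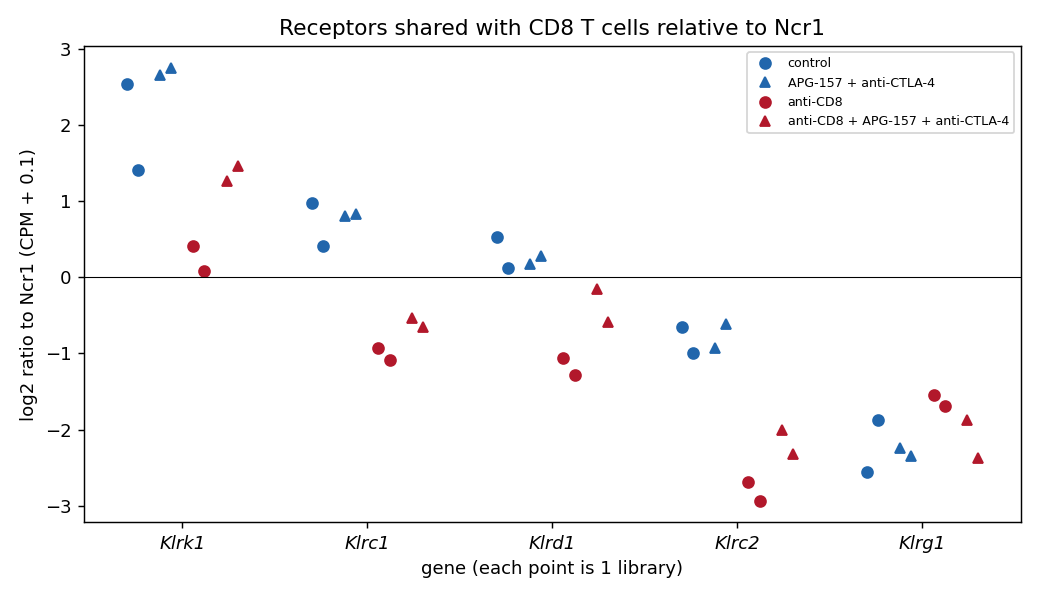
Log2 ratio of 5 receptor genes to Ncr1 (0.1 CPM added to each) in single libraries of control and APG-157 + anti-CTLA-4 (blue) and of the matched anti-CD8 groups (red). For Klrc1, Klrd1 and Klrc2 all 4 red points lie below all 4 blue points, for Klrk1 and Klrg1 they overlap. Groups outside this comparison are not drawn.

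The receptors were also set against Cd8a, whose product is the target of the depleting antibody. The log2 ratio of Ncr1 to Cd8a was 3.51 ± 0.42 (SD, n = 4) in the anti-CD8 groups and −1.30 ± 0.43 (SD, n = 4) in the matched groups, a difference of 4.81. The difference was 3.28 for Klrk1, 3.76 for Klrd1, 3.25 for Klrc1 and 5.19 for Klrg1. Each had p = 0.0286 in the exact two-sided permutation test, the smallest possible, and 0.0286 after adjustment over the 5 ratios. Here, too, the permutation ignored the setting. Since Cd8a was near 0 in the anti-CD8 libraries by the design of the treatment, the test says only that the receptors were not lower by as much as Cd8a, and the size of the difference depends on the constant added to Cd8a. With 0.5 CPM added it was 2.20 for Klrk1 and 3.65 for Ncr1. Against Cd8b1, the other coreceptor gene, the differences were 1.77 for Klrk1, 2.26 for Klrd1, 1.75 for Klrc1, 3.31 for Ncr1 and 3.69 for Klrg1.

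Klra2 was the member with the smallest p under anti-CD8. This Ly49 gene of myeloid cells was at 7.91 and 11.1 CPM after anti-CD8 against 33.4 and 30.9 CPM in control. It was at 20 and 31.1 CPM in the depleted combination against 69.0 and 74.1 CPM in APG-157 + anti-CTLA-4. The libraries did not overlap in either setting, but over both settings together they did, with 31.1 CPM in the depleted combination and 30.9 CPM in control. The anti-CD8 main effect was −1.62 ± 0.53 on the log2 scale (adjusted p = 0.213 in edgeR's quasi-likelihood test, 0.0235 in DESeq2). All 4 macrophage markers (Lyz2, Adgre1, Csf1r and Itgam) also had an anti-CD8 main effect below 0, with a median of −0.46 and a summed level of 1750 to 4510 CPM against 3920 to 4280 CPM, none of them at 0, and their part in the result was not tested. Klri1, an NK receptor of the same gene cluster, had 0.126 and 0.175 CPM after anti-CD8 against 0.269 and 0.292 CPM in control. Klrg2 was at 2.17 and 2.39 CPM against 2.80 and 2.88 CPM, and at 1.79 and 1.46 CPM against 3.91 and 3.22 CPM. Klrg2 is a less studied relative of Klrg1.

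Over the 4 depleted and 4 matched libraries together, Klrc3, Klrg2 and Klrh1 were lower without any overlap, against 2.17% of all tested genes. None of the 24 was higher without overlap, against 1.60% of all tested genes. Klrc3 rested on 3, 3, 3 and 10 reads in the depleted libraries. Klrh1 rested on 1, 0, 5 and 0 reads there and on 12, 13, 6 and 4 reads in the matched libraries, too few for a fold change.

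**Figure D4:**
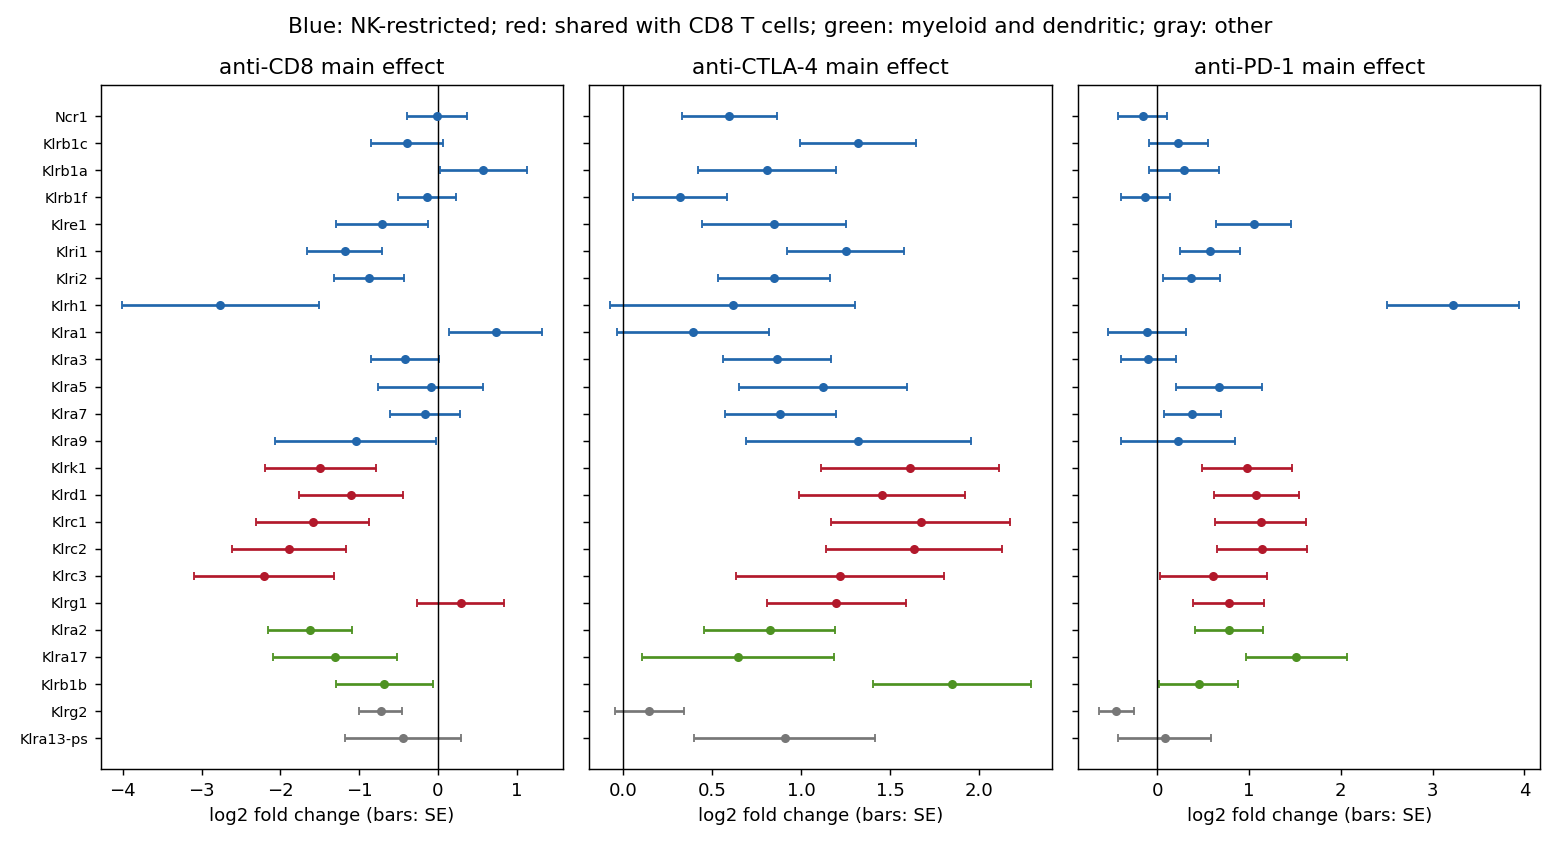
Log2 fold change with its SE (bars) of the 24 tested genes for the main effects of anti-CD8, anti-CTLA-4 and anti-PD-1, from edgeR, colored by cell type list. Under anti-CD8, Ncr1 lies at −0.02 and Klrc2 at −1.89. Under anti-CTLA-4 all 24 lie above 0, and under anti-PD-1 Klrh1 lies farthest out at 3.23, while its value under anti-CD8 rests on few reads.

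Anti-CTLA-4 was given in 4 of the 8 groups without depletion, which allows 8 libraries with it to be set against 8 without. All 24 tested members had a log2 fold change above 0 for this main effect, with a median of 0.90 against 0.00 over all genes. By edgeR's quasi-likelihood test 0 of 24 passed an adjusted p of 0.05, where 0.250% of all genes did. At an unadjusted p under 0.05, 14 of 24 were higher, against 5.84% of all genes. Fewer were higher without replicate A of anti-CTLA-4 or of the triple combination, and more without replicate B of either. DESeq2 called 7 members higher (Klrb1b, Klrb1c, Klrc1, Klrc2, Klrd1, Klri1 and Klrk1) and 3.08% of all genes in either direction.

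Klrb1b had a fold change of 1.85 ± 0.44 on the log2 scale (adjusted p = 0.104 in edgeR, 0.00134 in DESeq2). Its lowest, median and highest levels were 0.717, 5.66 and 9.46 CPM with anti-CTLA-4 and 0.520, 1.45 and 2.41 CPM without, so 6 of 8 libraries with the antibody exceeded all 8 without. Klrb1c ranged over 0.906, 2.41 and 4.10 CPM with anti-CTLA-4 and 0.467, 0.805 and 1.75 CPM without. All 8 libraries with the antibody lay above the median of those without, and the log2 fold change was 1.32 ± 0.33 (adjusted p = 0.114 in edgeR, 0.00599 in DESeq2). Klri1 ranged over 0.426, 1.08 and 1.74 CPM against 0.269, 0.436 and 0.748 CPM, with a log2 fold change of 1.25 ± 0.33. Both groups of libraries still overlapped for each of these genes.

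The genes shared with CD8 T cells had fold changes of similar size. Klrk1 ranged over 4.07, 34.2 and 63.2 CPM with anti-CTLA-4 (lowest, median, highest) and 1.94, 9.69 and 32.6 CPM without, so 6 of 8 libraries with the antibody again exceeded all 8 without. The log2 fold changes were 1.61 ± 0.50 for Klrk1, 1.67 ± 0.50 for Klrc1, 1.63 ± 0.50 for Klrc2, 1.45 ± 0.47 for Klrd1 and 1.2 ± 0.39 for Klrg1, against 0.60 ± 0.27 for Ncr1 (SE). Without anti-CTLA-4 replicate A, Klrk1 came to 0.99, Klrc1 to 0.98, Klrc2 to 0.79 and Klrd1 to 0.90. Without anti-CTLA-4 replicate B, edgeR called 3 members (Klrb1b, Klrb1c and Klrc2) among 123 of 21985 genes, and without replicate B of the triple combination it called Klrb1b among 70 of 22005 genes. In the same comparison, 7 of 7 T cell markers had a fold change above 0 (median 1.54, summed level 40.6 to 258 CPM with and 32.0 to 124 CPM without the antibody, none at 0), as did both CD8 coreceptor genes (median 1.82). The cytotoxic genes Prf1 (perforin) and Gzma (granzyme A) had log2 fold changes of 2.11 ± 0.43 and 1.71 ± 0.34, and the part of T cells in the members' values was not tested.

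**Figure D5:**
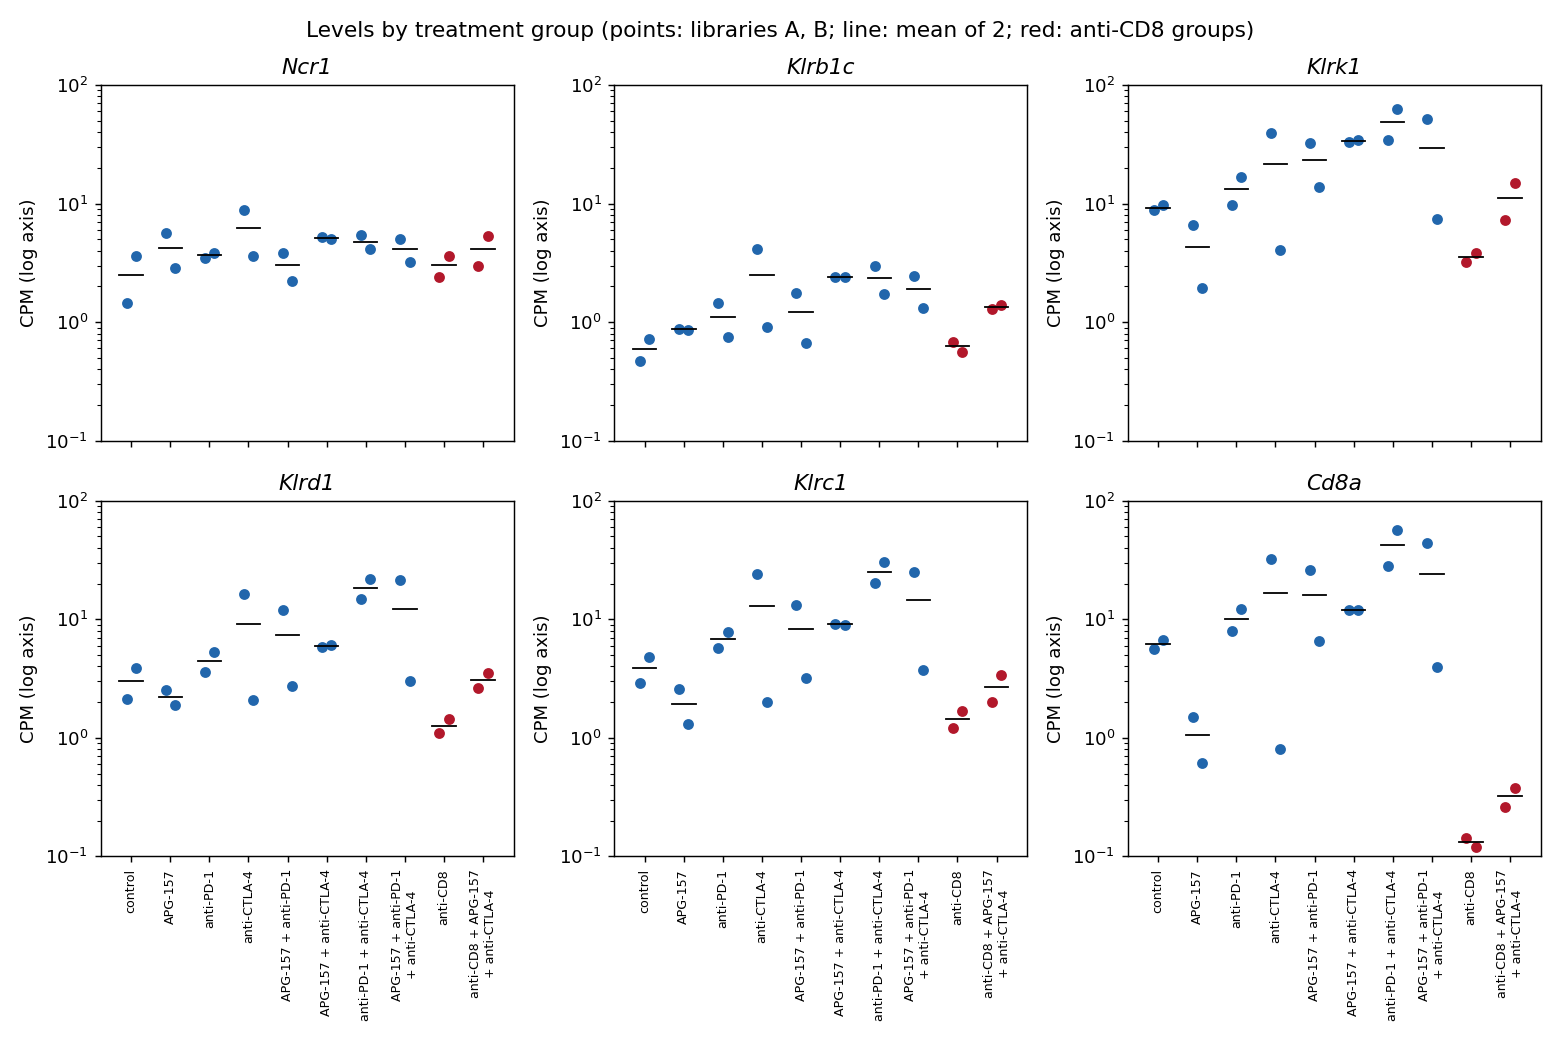
Levels of Ncr1, Klrb1c, Klrk1, Klrd1, Klrc1 and Cd8a (CPM, log axis) in the 10 treatment groups, with each library as a point, the mean of 2 as a line and anti-CD8 groups in red. Klrk1 is highest in dual blockade at 34.3 and 63.2 CPM, and Ncr1 varies least of the 6 genes over the libraries.

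Anti-PD-1, also compared as 8 libraries with against 8 without, had 0 of 24 members and 0% of all genes called by edgeR. At an unadjusted p under 0.05, 6 of 24 were higher (Klrh1, Klra17, Klre1, Klrc2, Klrd1 and Klrc1), against 5.69% of all genes, and Klrg2 was lower, against 3.08%. The count of higher members ran from 1 without replicate A of the triple combination to 12 without anti-CTLA-4 replicate A. DESeq2 called Klrh1 alone, and 0.887% of all genes. Klrh1, a little studied receptor gene, was at 0.593 and 1.00 CPM in anti-PD-1, 2.82 and 0.956 in APG-157 + anti-PD-1, 0.684 and 2.77 in dual blockade, and 2.62 and 0.465 in the triple combination. Without anti-PD-1 it was at 0.215 and 0.253 CPM in control, 0.108 and 0 in APG-157, 0.923 and 0.0533 in anti-CTLA-4, and 0.0883 and 0.0731 in APG-157 + anti-CTLA-4. A single library without the antibody, anti-CTLA-4 replicate A, reached into the range of those with it. The log2 fold change of Klrh1 was 3.23 ± 0.72 (adjusted p = 0.561 in edgeR, 0.00123 in DESeq2).

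The remaining genes differed less between anti-PD-1 libraries and the others. Klra17 had a log2 fold change of 1.51 ± 0.55, Klre1 1.05 ± 0.41, Klrc2 1.14 ± 0.49, Klrd1 1.08 ± 0.46 and Klrk1 0.98 ± 0.49, against −0.16 ± 0.27 for Ncr1. Klrg2 had −0.44 ± 0.19, and all 8 libraries with anti-PD-1 lay below the median of those without, 2.88 CPM. Among T cell markers 6 of 7 had a fold change above 0 (median 1.41, summed level 40.6 to 258 CPM with and 32.0 to 190 CPM without anti-PD-1), as had 4 of 4 skeletal muscle markers (median 4.06, summed level 0.614 to 3100 CPM with and 0.603 to 1130 CPM without). Their part in the members' values was not tested.

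For APG-157, again 8 libraries against 8, no member passed a test. By edgeR 0 of 24 members and 0% of all genes were called, 0 of 24 were at an unadjusted p under 0.05, against 7.36% of all genes, and DESeq2 called 0 members and 0.122% of all genes. The median log2 fold change was −0.05 over the members and −0.02 over all genes. Ncr1 had −0.00 ± 0.28, Klrk1 −0.10 ± 0.49, Klrd1 −0.23 ± 0.46 and Klrc1 −0.51 ± 0.49. APG-157 alone held 6.59 and 1.94 CPM of Klrk1 against 8.85 and 9.63 in control, and 5.66 and 2.84 CPM of Ncr1 against 1.44 and 3.60.

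Each treated group was also compared with control, and these comparisons share the control libraries. By edgeR's quasi-likelihood test, 0 of 24 members were called in any of them. In APG-157, 1 member was higher and 1 lower at an unadjusted p under 0.05, against 0.302% and 0.460% of all genes. The members higher at that level were 3 in anti-CTLA-4 (3.54% of all genes), 4 in the triple combination (2.23%), 1 in the depleted combination (13.3%), 0 in anti-PD-1 (0.353%) and 0 in APG-157 + anti-PD-1 (1.19%). In these 6 groups DESeq2 called 0 members, while it called 0.0413% of all genes in APG-157, 0.160% in anti-CTLA-4, 0.170% in the triple combination, 8.45% in the depleted combination, 0.0556% in anti-PD-1 and 0.0441% in APG-157 + anti-PD-1. The share of all genes called was 0.0204% for APG-157 + anti-CTLA-4, 0.0102% for the depleted combination, and 0% for each of the single agents, for APG-157 + anti-PD-1, for dual blockade and for the triple combination. In dual blockade, 10 of 24 members (Klrg1, Klra7, Klri1, Klrb1c, Klrb1b, Klrc2, Klrd1, Klrc1, Klrk1 and Klre1) were higher at an unadjusted p under 0.05, against 4.22% of all genes, and the median over the members was 1.88 on the log2 scale. The 10 became 3 without control replicate A, 13 without control replicate B, 6 without dual blockade replicate B and 9 without its replicate A. Klrg1 had 7.10 and 1.66 CPM there against 0.162 and 0.914 CPM in control, a log2 fold change of 3.02 ± 0.83 (adjusted p = 0.730 in edgeR, 0.0270 in DESeq2). DESeq2 called Klrg1 alone among the members, and 0.522% of all genes. In APG-157 + anti-CTLA-4, 4 of 24 were higher at an unadjusted p under 0.05 (Klrb1c, Klri1, Klra7 and Klrb1b), against 5.71% of all genes, and DESeq2 called 0 members and 2.21% of all genes. With control replicate A left out the 4 became 0, and with replicate B left out they became 6. Klrb1c was at 2.41 and 2.41 CPM there, a log2 fold change of 2.02 ± 0.67, and at 1.29 and 1.40 CPM when anti-CD8 was added.

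Reads of closely related members are hard to assign. Of the 31-base words in the transcripts of Klrc1, 53.1% also occurred in another member, most of them in Klrc2, and the shares were 53.4% for Klrc3, 57.8% for Klra9, 43.5% for Klra3 and 24.7% for Klra7. The values of the Klra genes and of Klrc1, Klrc2 and Klrc3 relative to one another are therefore uncertain. Klrk1, Klrd1, Klre1, Klrg1, Klrg2, Klrh1, Klra2 and Ncr1 shared 0% with other members. Among the Ly49 genes, Klra3 lay between 0.520 and 3.02 CPM and Klra7 between 0.251 and 1.96 CPM over the 20 libraries. Klra1, Klra5, Klra9 and the pseudogene Klra13-ps did not exceed 1.00 CPM. Of the NKR-P1 genes, Klrb1a lay between 0.251 and 2.47 CPM, the highest in the depleted combination's replicate B, and Klrb1f between 0.539 and 1.78 CPM. Klre1, whose product pairs with Klri1 or Klri2 proteins, lay between 0.664 and 6.74 CPM, and Klri2 between 0.979 and 6.34 CPM. Their anti-CD8 main effects were −0.71 ± 0.58 and −0.88 ± 0.44 on the log2 scale.

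The ligands and adaptors of these receptors were measured too. Of 18 ligand genes listed, 14 were found and 11 tested, and of 9 signaling partners all were tested. For the anti-CTLA-4 main effect, the partners with the smallest p were Cd247 and Zap70, which carry signals of T cell and NK receptors, with log2 fold changes of 1.47 ± 0.46 and 1.21 ± 0.47. Next was H2-T23, which encodes Qa-1, the class I-like ligand of the CD94 receptors, with 0.86 ± 0.33. None of the ligands or partners was called by edgeR in that comparison, where 0.250% of all genes were. At an unadjusted p under 0.05, 3 of 20 were higher, against 5.84% of all genes. The cause of their differences was not tested. For anti-PD-1 the smallest p belonged to Cdh2 (1.11 ± 0.33), Cd247 (1.22 ± 0.46), Zap70 (1.21 ± 0.47) and Clec2d (0.51 ± 0.21). For APG-157 they belonged to the NKG2D ligands Raet1e (0.55 ± 0.30) and Raet1d (0.47 ± 0.29), to Zap70 (−0.71 ± 0.46) and to Clec2d (−0.31 ± 0.21).

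Under anti-CD8 the 9 signaling partners all had a main effect below 0 (median −0.49), and 3 of them were at an unadjusted p under 0.05, where 7.10% of all genes were lower. Those 3 were the phosphatase gene Ptpn6 (−0.61 ± 0.20), the kinase gene Syk (−0.41 ± 0.15) and Tyrobp (−0.60 ± 0.24), which encodes the adaptor DAP12. These values moved with single libraries of the depleted combination. Without its replicate B they were −0.49 (unadjusted p = 0.0463, edgeR across all genes) for Ptpn6, −0.24 (0.0729) for Syk and −0.40 (0.111) for Tyrobp, and without its replicate A edgeR called all 3, at adjusted p = 0.0360, 0.00484 and 0.0277, among 4119 of 21969 genes. Cdh1, which encodes the Klrg1 ligand E-cadherin, had 2.60 ± 0.81. Without replicate B of the depleted combination, which had 224 CPM of Cdh1 against 5.15 CPM in replicate A, it was 0.36. Between the depleted and undepleted combination, edgeR called Cdh1 higher (4.02 ± 1.21, adjusted p = 0.0408) and Syk lower (−0.67 ± 0.22, adjusted p = 0.0479). In that comparison edgeR called 19.0% of all genes and DESeq2 called 27.4%. The NKG2D ligands Ulbp1 (−1.29 ± 0.43) and Raet1d (−1.68 ± 0.59) had adjusted p values of 0.0539 and 0.0622 in edgeR and of 0.0158 and 0.0210 in DESeq2. These values, too, rested on single libraries. Without that replicate B, Cdh1 was at −0.45, Syk at −0.32, Ulbp1 at −0.77 and Raet1d at −1.21. Without replicate A, the 4 were at 4.96, −1.15, −2.13 and −2.39 in the same order. None of the 4 was called without either APG-157 + anti-CTLA-4 library.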

How the data were processed

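The authors trimmed reads with Trimmomatic 0.39 and estimated abundances with Salmon (1.5.0 in the submitters' processing notes) on GRCm39, and the deposited gene values are estimated counts (expected counts) without scaling. A deposited table of log2 values of the same libraries was not used. Members and gene lists were chosen with earlier results of these data known.

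Counts of 54309 genes in 20 libraries (43920525 to 72081922 counts each) were rounded. Of all values 71.5% were exactly whole. Genes were filtered by edgeR's filterByExpr (minimum count 10, minimum total 15), which left 19567, and were scaled by TMM. One quasi-likelihood model with a mean per group was fitted to all libraries (10 residual degrees of freedom, common biological coefficient of variation 38.7%). In each of 15 comparisons, a gene counted as called below a Benjamini-Hochberg adjusted p of 0.05. Log2 ratios between members and Cd8a or Ncr1 used CPM + 0.1 and an exact permutation test over libraries. GENCODE vM21 transcripts gave the shared 31-base words.

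Members with a mean of at least 0.1 CPM were described one by one, the others by range, and other genes came from lists of markers, ligands and signaling partners (the 4 ligands or partners with the smallest unadjusted p per comparison described). Settings varied were size factors, the filter, DESeq2 (Wald test), the letter as a block, a fold minimum, the summed APG-157 + anti-CTLA-4 libraries, pseudocounts of 0.5 and 0.02, Cd8b1 for Cd8a, and single libraries left out. Ratios to Ncr1 were added after seeing the data. The scripts were tested on simulated data. Versions were R 4.3.3, edgeR 4.0.16, DESeq2 1.42.0, Python 3.11.15 and matplotlib 3.10.9.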

Additional observations from a re-analysis of the deposited data

How the results depend on the processing

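With 2 libraries per group, calls depended on the tool. Of 194 repeats of the 15 counts of called members, 185 kept a count of 0. Among these, the repeat with a fold minimum could only return 0, since the main count was 0 in each comparison. DESeq2 called 7 members for the anti-CTLA-4 main effect and 1 each for anti-CD8, anti-PD-1, dual blockade against control and the depleted against the undepleted combination. With single libraries left out, the count ran from 0 to 3 for anti-CTLA-4, from 0 to 1 for the depleted combination against the undepleted one, and from 0 to 1 for the depleted combination against control (Klrb1a, without replicate A, where edgeR called 6632 of 21969 genes). Of the fold changes, 943 of 951 repeats kept their direction. The 67 fold changes repeated were of members at an unadjusted p under 0.05 in edgeR, and of Ncr1, Klrk1, Klrb1c, Klrc1, Klrd1 and Klrg1. Since the members with a low p were picked from the same data, this share does not describe all fold changes of the family. Reversed were Ncr1 under anti-CD8, −0.02 to 0.01 with RLE size factors and to 0.39, 0.16 and 0.13 without control replicate B, replicate A of the depleted combination and anti-CD8 replicate A; Ncr1 in the depleted against the undepleted combination (0.05 without replicate A); Ncr1 under anti-PD-1 (0.06 without control replicate B and 0.05 without anti-CTLA-4 replicate A); and Klrg1 under anti-CD8 (−0.09). With single libraries left out, these ranged from −0.27 to 0.39, −0.78 to 0.05, −0.28 to 0.06 and −0.09 to 1.15. The cause was not tested. Libraries with the same letter also hold a consecutive run of sample numbers in their column names, and what that run reflects is not stated. The correlation of deviations was −0.337 to 0.664 over 45 pairs of groups. The replicate block left 0 members called in every comparison. For the 5 ratios to Cd8a it kept the differences at 4.81 for Ncr1, 3.28 for Klrk1, 3.76 for Klrd1, 3.25 for Klrc1 and 5.19 for Klrg1, with an exact adjusted p = 0.0556, the smallest that permuting within a letter allows. The other 60 repeats of these ratios kept an adjusted p under 0.05. For the added ratios to Ncr1, 13 of 55 repeats lost a call, 1 gained one and none reversed. The replicate block lost the calls of Klrd1, Klrc1 and Klrc2, each with an exact adjusted p = 0.0926. Klrc3 was not among the ratios.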
